A study of Homo sapiens with 6 samples.

Results

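The zinc finger genes of chromosome band 19p12 were examined in MDA-MB-453 cells, an established human breast cancer line, after knockdown of tRF-1-Ser, a small RNA derived from the trailer of a serine transfer RNA precursor. Of the 25 expressed members of this cluster that are not pseudogenes, 8 rose when tRF-1-Ser was knocked down and none fell by edgeR's quasi-likelihood test, with the largest rise in ZNF91, from 18.0 ± 1.77 to 35.1 ± 1.49 CPM (counts scaled to the library total, mean ± SD, n = 3). Over all genes tested, 20.6% rose and 18.9% fell. ZNF675, ZNF681 and ZNF254, which lie beyond ZNF91 towards the centromere, rose as well. The other 17 members did not pass the test, among them ZNF93 and ZNF43. The pseudogene ZNF725P rose from 0.370 ± 0.191 to 4.28 ± 0.502 CPM.

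The members were the rows of the count table whose symbol starts with ZNF, whose gene lies on chromosome 19 and whose first base falls between 19000000 and 24500000 (GRCh38), with 10 or more counts in at least 3 of the 6 libraries. The window held 40 such symbols among the 36517 genes of the table, and 27 of them reached the count floor. Of these 27, ZNF724P and ZNF725P carry pseudogene symbols and are described apart from the other 25. The rule read counts, but each of the 27 had at least 10 counts in all 6 libraries, so none entered through the group in which it was higher. Just inside the floor lay ZNF725P, whose lowest library held 13 counts, and then ZNF257, whose lowest held 100. Just outside lay ZNF92P3, with 6, 5 and 13 control counts against 6, 8 and 2 shtRF counts. The other 12 rows below the floor had at most 8 counts in any library. The first stretch of the window reaches into the neighbouring band 19p13.11.

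Messenger RNA was sequenced on day 3 from MDA-MB-453 cells carrying a lentiviral hairpin against tRF-1-Ser (shtRF, n = 3) or a negative-control hairpin delivered in the same way (control, n = 3). Both groups are the same line and both carry a lentivirus, and 1 hairpin stands for the knockdown. It is not stated whether the replicates were separate transductions, so p-values measure the spread between these libraries. The hairpin's target is too small to be read in messenger RNA libraries, so the knockdown itself was not checked here. The paper reports that knockdown efficiency was checked by qPCR. Library totals lay between 63541413 and 78917459 counts. The epithelial and luminal markers EPCAM, KRT8, KRT18, KRT19, GATA3, FOXA1, SPDEF and ERBB2 had group means between 75.9 and 2691 CPM, and of these KRT8 and KRT18 were higher in shtRF while ERBB2 and GATA3 were lower (edgeR adjusted p = 3.88e-10, 5.10e-09, 0.0114 and 0.0397). The luminal marker ESR1 and the basal keratins KRT5 and KRT14 had group means of at most 0.211 CPM. The leukocyte and endothelial markers PTPRC and PECAM1 and the fibroblast marker COL3A1 were close to 0, while COL1A1, also a fibroblast marker, stood at 32.2 CPM in control and 20.9 CPM in shtRF. In bulk RNA from a cell line such as this, fewer cells expressing a gene and less of its RNA per cell cannot be told apart.

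Most genes of this cluster encode KRAB zinc finger proteins. Their arrays of C2H2 fingers bind DNA, often within transposable elements, and the KRAB domain recruits TRIM28, which brings the histone methyltransferase SETDB1, heterochromatin proteins and histone deacetylases to the bound site. The cluster grew by repeated duplication in primates, so neighbouring members resemble each other in sequence. ZNF91 is known for binding SVA retrotransposons and ZNF93 for binding LINE-1 elements.

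The likeness of the members extends to their promoters. RefSeq promoter sequences (GRCh38.p14, from 250 bases before to 50 bases after the transcription start) were found for 23 of the 27 members, ZNF724P under its current symbol ZNF724. ZNF506, ZNF253, ZNF738 and ZNF725P had no entry. Over the 253 pairs of members, the median identity of the aligned promoters was 75.7% (range 49.1% to 91.0%). Over 231 pairs of promoters of other genes in the window the median was 50.7%. The last 150 bases before the start are shown, 5′ to 3′ on the gene's strand, for the 4 members with the largest change apart from the pseudogene. Capitals mark TCCAATCA, which holds the letters of a CCAAT box, and GTCACTCA.
ZNF91, chr19:23395472-23395621, minus strand: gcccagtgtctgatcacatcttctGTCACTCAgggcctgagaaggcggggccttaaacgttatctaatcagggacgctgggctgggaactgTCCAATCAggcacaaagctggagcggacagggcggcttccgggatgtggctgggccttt
ZNF675, chr19:23687213-23687362, minus strand: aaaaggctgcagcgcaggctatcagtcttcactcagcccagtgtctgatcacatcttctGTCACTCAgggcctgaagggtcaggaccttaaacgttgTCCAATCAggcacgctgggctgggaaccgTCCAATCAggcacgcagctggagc
ZNF681, chr19:23758892-23759041, minus strand: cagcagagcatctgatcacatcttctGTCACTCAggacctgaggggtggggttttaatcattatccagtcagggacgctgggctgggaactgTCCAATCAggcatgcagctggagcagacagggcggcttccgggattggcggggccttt
ZNF254, chr19:24087037-24087186, plus strand: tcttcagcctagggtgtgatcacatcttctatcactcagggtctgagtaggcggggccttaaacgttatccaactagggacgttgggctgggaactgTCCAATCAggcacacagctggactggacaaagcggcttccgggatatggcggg
The count table and RefSeq place some starts differently, so that the ZNF254 stretch lies inside the span the table gives that gene. The same holds for the ZNF43 stretch further on. Parts of the ZNF91, ZNF675, ZNF708 and ZNF101 stretches also lie inside the spans of their genes. For comparison, shorter stretches around the same letters are shown for ZNF708 and ZNF101, which also rose, and for ZNF93, ZNF90, ZNF43 and ZNF726, which did not pass the test.
ZNF708, chr19:21329411-21329468, minus strand: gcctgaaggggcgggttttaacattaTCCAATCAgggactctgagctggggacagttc
ZNF101, chr19:19668742-19668807, plus strand: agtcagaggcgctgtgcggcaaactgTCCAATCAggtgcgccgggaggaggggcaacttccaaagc
ZNF93, chr19:19900835-19900900, plus strand: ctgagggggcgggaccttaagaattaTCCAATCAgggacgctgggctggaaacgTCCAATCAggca
ZNF90, chr19:20077891-20077956, plus strand: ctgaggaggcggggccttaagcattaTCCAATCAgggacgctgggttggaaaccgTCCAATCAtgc
ZNF43, chr19:21836231-21836296, minus strand: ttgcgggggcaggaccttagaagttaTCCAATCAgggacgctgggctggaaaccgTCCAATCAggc
ZNF726, chr19:23914772-23914837, plus strand: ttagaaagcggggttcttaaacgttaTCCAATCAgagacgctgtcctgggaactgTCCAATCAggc

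TCCAATCA was found on the gene's strand in 23 of the 23 member promoters and in the 5 promoters available for cluster members below the count floor. It was in 0 of 22 promoters of other genes in the window. Elsewhere it was held by 22 of 196 ZNF promoters on the rest of chromosome 19 (11.2%) and by 16 of 221 ZNF promoters on other chromosomes (7.24%). Among all 27305 promoters, 271 held it on the gene's strand (0.993%) and 440 on either strand (1.61%). The 35 matches in member promoters began between 24 and 88 bases before the start, with a median of 59 bases. GTCACTCA does not overlap these letters and was found in 17 of 23 member promoters, 67 to 127 bases before the start, against 189 of all promoters on the gene's strand (0.692%) and 335 on either strand (1.23%). Both sets of letters were picked after the sequences had been read. A match describes the letters and says nothing about binding.

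The number of matches varied among the members. A single TCCAATCA was present in 11 promoters, of which 7 belonged to genes that rose, ZNF91, ZNF681 and ZNF254 among them. Paired copies, spaced 28 or 29 bases apart, were present in 12 promoters, of which 1 belonged to a gene that rose, ZNF675. Of all genes tested, 20.6% rose. The median log2 fold change was 0.43 over the 11 genes with 1 match and 0.13 over the 12 with 2 matches. This split was seen after the fold changes were known and was given no test. In the ZNF91 and ZNF681 sequences above, the letters at the place of the earlier copy differ from it, as the lower case shows. CpG sites numbered 8 to 18 in the member promoters, with a median of 10, against a median of 14 over all promoters.

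**Figure D1:**
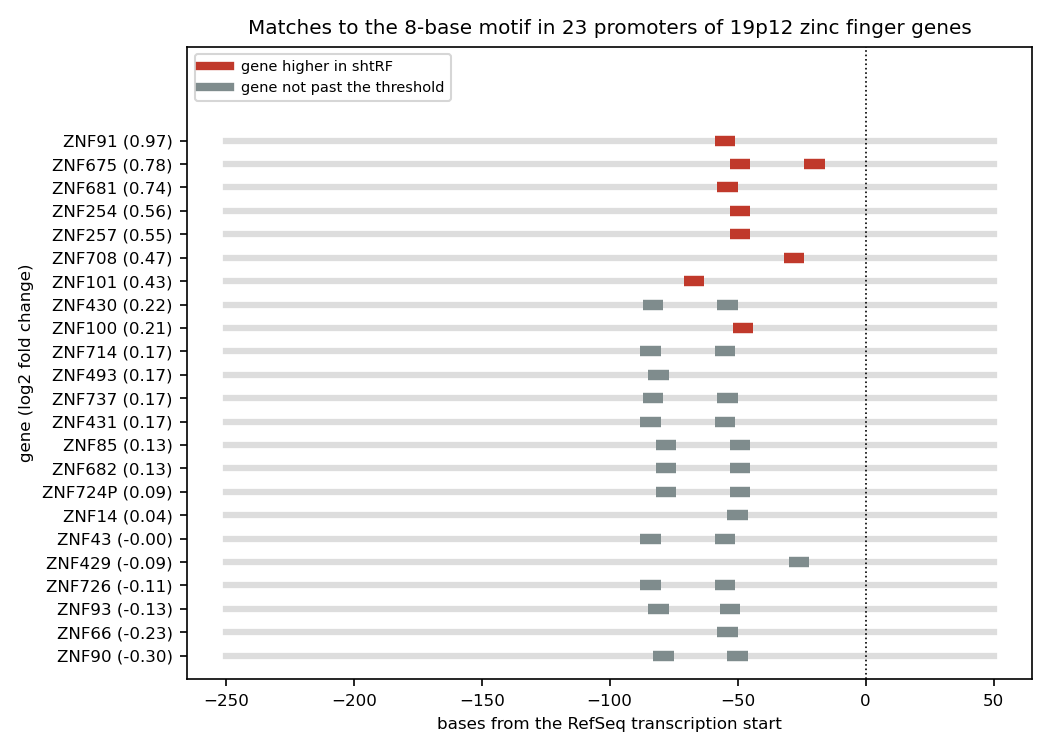
Each row is the RefSeq promoter of a member, ordered by its log2 fold change (shtRF over control, in brackets), and the x axis gives bases from the transcription start. Bars are matches to the 8-base motif and are coloured by whether the gene rose: 11 promoters hold 1 match and 12 hold 2, and the upper rows mostly hold 1.

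To learn whether the cluster moved when tRF-1-Ser was knocked down, shtRF was compared with control in a fit over all 19628 genes with enough counts. ZNF91 was the member with the largest change among the 25. Its level was 17.3, 20.0 and 16.6 CPM in control and 35.8, 33.4 and 36.2 CPM in shtRF. The groups lay far apart, and the lowest shtRF library was above the highest control library. The log2 fold change was 0.97 ± 0.07 (SE), with an edgeR adjusted p of 6.21e-10. ZNF91 lies on the minus strand at chr19:23304991-23395560.

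ZNF675, also called TIZ, has been described as an inhibitor of TRAF6 signalling. Its CPM was 19.7, 22.7 and 21.2 in control and 36.8, 37.0 and 35.3 in shtRF. Again no library of either group reached into the other. Its log2 fold change was 0.78 ± 0.07 (edgeR adjusted p = 3.83e-09), and the gene lies at chr19:23525631-23687220 on the minus strand. ZNF681 (chr19:23739195-23758891, minus strand) is less abundant, at 5.44, 4.63 and 5.46 CPM in control and 8.12, 8.13 and 9.66 CPM in shtRF. It showed the same separation, with a log2 fold change of 0.74 ± 0.11 (edgeR adjusted p = 1.32e-05). ZNF254 (chr19:24033405-24129961, plus strand) gave the tightest control values, 14.5, 14.6 and 14.4 CPM, against 21.4, 20.3 and 22.4 CPM in shtRF. The difference of 0.56 ± 0.07 on the log2 scale (edgeR adjusted p = 2.03e-06) exceeded the spread within both groups.

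Farther from the centromere, 4 members rose. ZNF708 (chr19:21291160-21329425, minus strand) stood at 22.0, 21.6 and 24.3 CPM in control and 29.3, 30.1 and 34.8 CPM in shtRF, a log2 fold change of 0.47 ± 0.07 (edgeR adjusted p = 2.21e-05). ZNF101 (chr19:19668796-19683509, plus strand) stood at 3.87, 3.75 and 3.43 CPM in control and 5.10, 4.72 and 5.06 CPM in shtRF, a log2 fold change of 0.43 ± 0.12 (edgeR adjusted p = 0.00762). In both genes the groups did not overlap. ZNF100 (chr19:21722766-21767628, minus strand) had 24.6, 26.5 and 24.8 CPM in control and 29.1, 28.4 and 30.5 CPM in shtRF. Its log2 fold change of 0.21 ± 0.06 was the smallest of those that passed (edgeR adjusted p = 0.0115), and without shtRF replicate 3 the adjusted p was 0.0688. ZNF257 (chr19:22052452-22091480, plus strand) was the least abundant, with 1.54, 2.12 and 1.70 CPM in control and 3.05, 2.72 and 2.06 CPM in shtRF. Its groups overlapped, since shtRF replicate 3 lay below control replicate 2. The log2 fold change was 0.55 ± 0.19 (edgeR adjusted p = 0.0226), and the call was lost without control replicate 1 (adjusted p = 0.0945), control replicate 3 (0.0551), shtRF replicate 1 (0.134) or shtRF replicate 2 (0.0681).

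**Figure D2:**
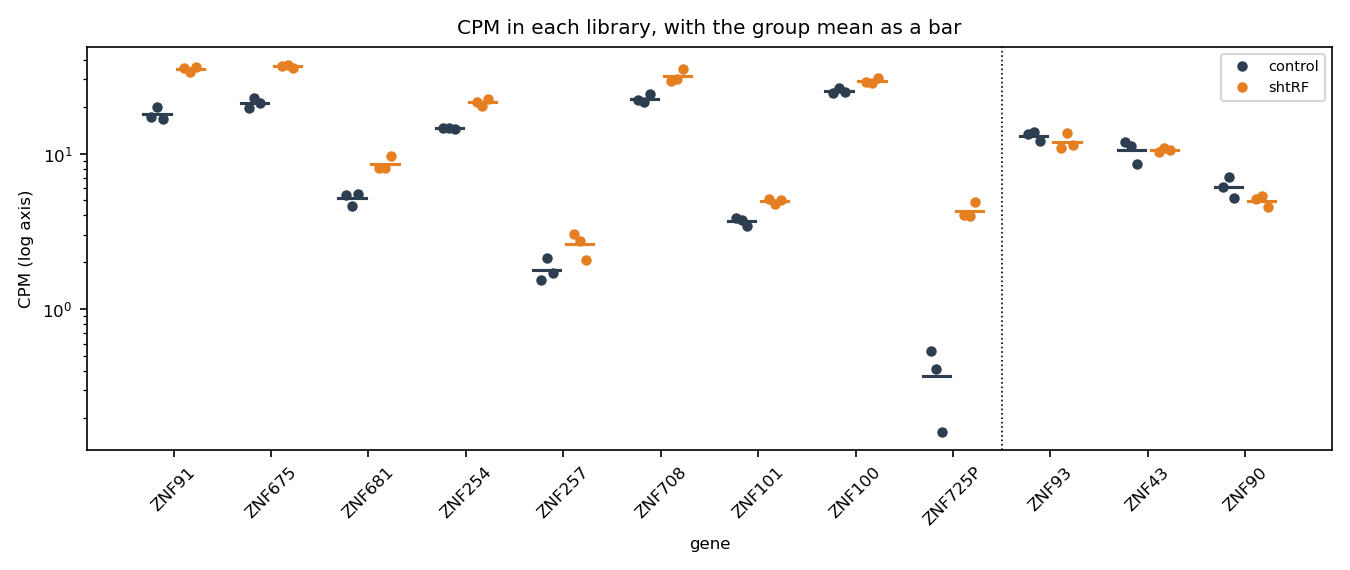
CPM on a log axis in each of the 3 control and 3 shtRF libraries, with the group mean as a horizontal bar, for the 8 members that rose and ZNF725P to the left of the dotted line and for named members that did not pass to its right. The groups are apart in every gene left of the line except ZNF257.

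Read against the whole table, 8 of 25 members is 32%, where 20.6% of all genes tested passed in the same direction, and 0 of 25 lower stands beside 18.9% of all genes. In either direction 39.5% of all genes passed. At an unadjusted p under 0.05, edgeR gave 12 members higher and 1 lower, ZNF90. DESeq2 gave 0 lower at an adjusted p under 0.05 and 1 at an unadjusted p, and limma gave 0 on either count. The median log2 fold change of the 25 was 0.17, with an interquartile range from 0.01 to 0.43, and that of all 19628 genes was -0.003. The fold change was positive in 19 members and negative in 6. In 12 members every shtRF library lay above every control library, as in 24.9% of all genes, and in 1 member, ZNF429, every shtRF library lay below, as in 23.8% of all genes. None of the 25 changed by more than 2-fold with an adjusted p under 0.05 in edgeR, DESeq2 or limma, nor with an unadjusted one, beside 2.66% of all genes that rose and 3.11% that fell by that much. Leaving out a library brought ZNF91 just past 2-fold in edgeR, at a log2 fold change of 1.04 without control replicate 2 (adjusted p = 1.84e-09) and 1.003 without shtRF replicate 2 (adjusted p = 1.38e-08).

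The 17 members that did not pass had log2 fold changes between -0.30 and 0.23. ZNF431, ZNF714, ZNF430 and ZNF506 lay nearest to the threshold on the higher side, with edgeR adjusted p-values of 0.0601, 0.0639, 0.0693 and 0.085. In each of these 4 genes, and in ZNF737, every shtRF library was above every control library. Leaving out control replicate 1 brought ZNF714 past the threshold (adjusted p = 0.0449), and leaving out control replicate 3 did so for ZNF430 (0.0326) and ZNF431 (0.0477). ZNF90 lay nearest on the lower side, at 6.10, 7.08 and 5.21 CPM in control and 5.10, 5.30 and 4.55 CPM in shtRF. These values overlapped, and the log2 fold change of -0.30 ± 0.12 had an edgeR adjusted p of 0.0629. Without control replicate 3 it was -0.40 (adjusted p = 0.0132). Of the exonic length of ZNF90, 20.3% is shared with exons of other genes, and reads there cannot be assigned to 1 gene alone.

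ZNF93 stood at 13.3, 13.8 and 12.1 CPM in control and 10.8, 13.6 and 11.3 CPM in shtRF, and its log2 fold change of -0.13 ± 0.09 did not pass (edgeR adjusted p = 0.286). ZNF43 gave 11.9, 11.2 and 8.53 CPM in control and 10.2, 10.8 and 10.5 CPM in shtRF. The shtRF values of ZNF43 fell inside the range of the control values, and its log2 fold change was -0.0046 ± 0.11. ZNF253, the most abundant member per length in control, had means of 20.5 ± 1.50 and 21.0 ± 0.990 CPM, a log2 fold change of 0.04 ± 0.07 (edgeR adjusted p = 0.730). A p that misses the threshold does not show that these genes were the same in both groups.

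Summed over the 25 members, control gave 278.7, 291.4 and 273.7 CPM and shtRF 346.0, 343.6 and 348.8 CPM. The sums did not overlap, and the ratio of their means was 1.23. The 8 members that rose went from 112 ± 3.44 to 170 ± 5.71 CPM, while the other 17 summed to 169 CPM in control and 176 CPM in shtRF, a ratio of 1.04. The 8 were chosen by their change, so these sums are a description and were not tested.

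Levels were compared between genes per length, as counts per kilobase of exon scaled to the library total (RPKM). Over all 6 libraries the members' mean levels ran from 0.436 to 6.22 RPKM with a median of 1.32, against 2.38 for all genes tested. In control, ZNF253 came first at 5.75 ± 0.425 RPKM, followed by ZNF708 at 5.32 ± 0.306, and these values overlapped. ZNF101 at 0.572 ± 0.0377 and ZNF257 at 0.362 ± 0.0626 RPKM came last. Of the 24 pairs of neighbours in this order, 17 overlapped in their control libraries and 7 did not. ZNF91 stood 11th in control, at 1.76 ± 0.185 RPKM, and 6th in shtRF, at 3.32 ± 0.202. ZNF675 went from 5th to 3rd, at 5.26 ± 0.192 RPKM in shtRF, and ZNF681 from 21st to 16th.

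The chromosomal order of the members put most of the larger changes together. A run of 8 consecutive ZNF rows, from ZNF729 to ZNF730, had at most 6 counts in any library and divided the members into 20 before it and 7 beyond it, towards the centromere. Before the run, 4 of 20 members rose, close to the share of 20.6% among all genes tested, and the median log2 fold change was 0.15. Beyond it, between 23221599 and 24129961, 4 of the 5 members that are not pseudogenes rose, with a median of 0.74. The exception was ZNF726, with a log2 fold change of -0.11 ± 0.14 (edgeR adjusted p = 0.560). This division was made after the values had been seen and was given no test. By strand, 5 of 10 members on the minus strand and 3 of 15 on the plus strand rose, beside 20.6% of all genes.

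**Figure D3:**
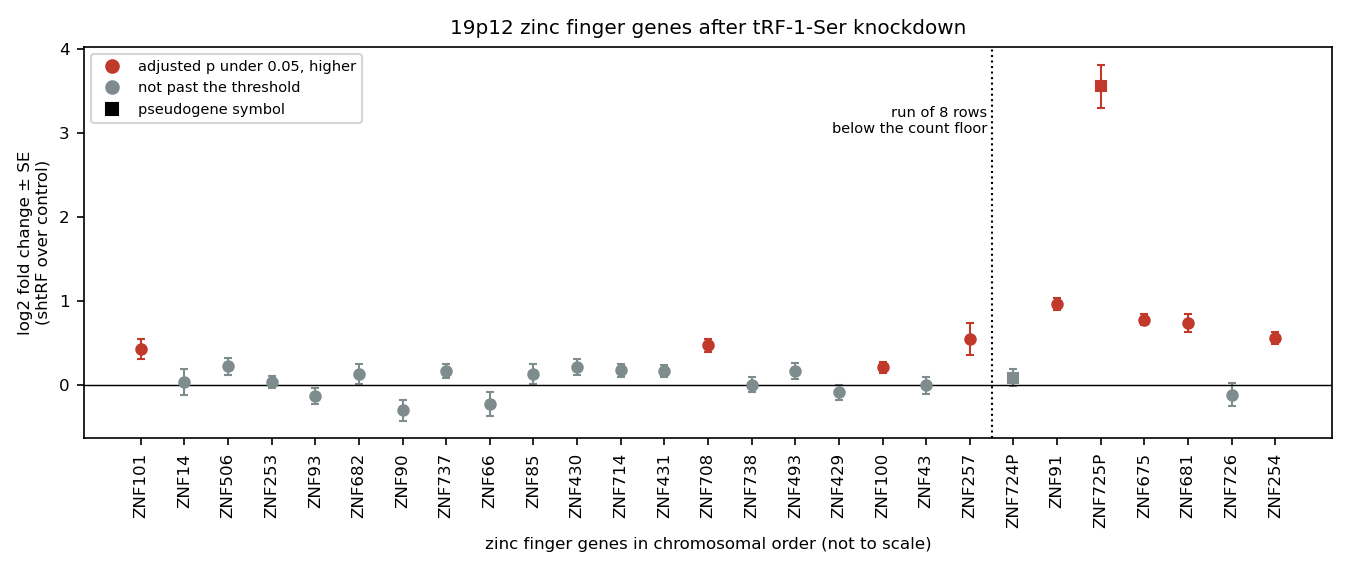
Log2 fold change ± SE (shtRF over control, n = 3 each) of the 27 members in chromosomal order, not to scale, coloured by whether the edgeR adjusted p was under 0.05. The tallest values stand at the right end, beyond the silent run, with ZNF725P at 3.55 and ZNF91 at 0.97.

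ZNF725P lies in the same stretch, at chr19:23492428-23512656 on the minus strand, between ZNF91 and ZNF675, and RefSeq also lists it as a pseudogene. Control replicates 1 to 3 gave it 35, 31 and 13 counts, and shtRF replicates 1 to 3 gave it 283, 271 and 301. No control library came near an shtRF library, and the log2 fold change was 3.55 ± 0.25 (edgeR adjusted p = 2.46e-10). The longest GENCODE 29 transcript of each member was searched for ungapped alignments of full identity with transcripts of other genes. None of 50 bases or more was found for ZNF725P, ZNF91 or ZNF681. ZNF675 had such runs over 1.59% of its transcript bases and ZNF254 over 6.43%, the latter in a run of 273 bases. Exact runs inside alignments that also held mismatches could be missed, so the search cannot show that no reads were shared. ZNF724P, which RefSeq lists as the protein-coding ZNF724, had means of 9.42 ± 0.326 and 10.0 ± 1.31 CPM, a log2 fold change of 0.09 ± 0.10 (edgeR adjusted p = 0.524). Exons of other genes overlap 44.8% of its exonic length, and 56.1% of its transcript bases lie in exact runs of at least 50 bases shared with another gene's transcripts. Its count is therefore uncertain. Among the 9 genes that rose, at most 4.28% of the exonic length was shared with another gene.

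Other genes of the window were counted beside the cluster. Of 111 such genes 50 were tested, of which 10 rose and 4 fell, with a median log2 fold change of 0.12. These are 20% and 8% of the 50, beside 20.6% of all genes higher and 18.9% lower. Beyond the silent run 12 were tested, of which 6 rose and 2 fell. The 6 are not all separate. RP11-15H20.8, among them, has 89.7% of its exonic length shared with exons of other genes. For CTD-2017D11.1, which lies inside the span of ZNF254, this share is 12.5%. CTB-176F20.3, a transcript inside ZNF91 on the opposite strand with no exonic base in common (chr19:23323968-23329101), rose from 1.97 ± 0.641 to 6.10 ± 0.0622 CPM, a log2 fold change of 1.64 ± 0.17 (edgeR adjusted p = 1.18e-07). How strand was used in counting is not stated, so its reads cannot be told apart from those of unspliced ZNF91 RNA. RP11-255H23.2, which starts at 23762944 on the plus strand next to ZNF681, rose from 9.70 ± 0.577 to 17.7 ± 0.282 CPM (0.87 ± 0.08 on the log2 scale, adjusted p = 1.26e-08). IPO5P1, a pseudogene, rose by 1.11 ± 0.23 on the log2 scale (adjusted p = 4.64e-04). RP11-15H20.7 rose by 1.06 ± 0.31 (adjusted p = 0.00968), and without shtRF replicate 3 its adjusted p was 0.0506. Of its exonic length 98.1% is shared, the largest part with IPO5P1, so both rises may rest in part on the same reads. MEF2B, a transcription factor gene near the start of the window with 73.9% of its exonic bases shared, fell by 0.81 ± 0.21 (adjusted p = 0.00307). Beyond the run, the genes that fell were RPSAP58, from 21.6 to 12.9 CPM, and RP11-255H23.4, from 8.50 to 4.98 CPM, both named after their values were seen.

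ZNF genes outside the window were tested in the same fit. On the rest of chromosome 19, 25 of 200 rose (12.5%) and 14 fell (7%), with a median log2 fold change of 0.02. On other chromosomes, 38 of 260 rose (14.6%) and 70 fell (26.9%), with a median of -0.05. Over all genes tested, 20.6% rose and 18.9% fell. The differences between these lists were not tested.

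**Figure D4:**
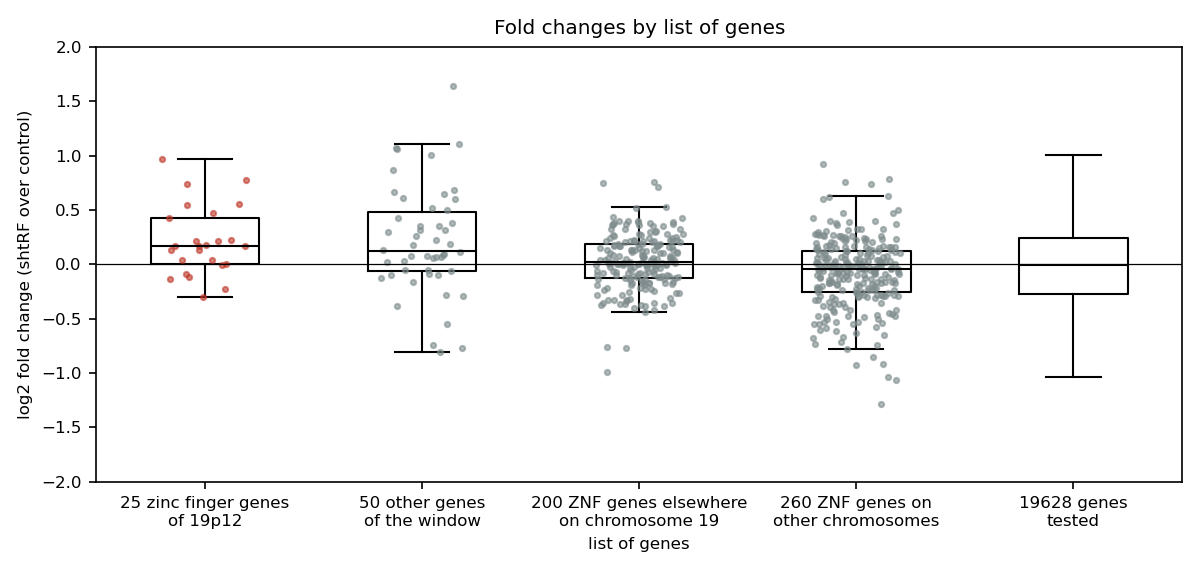
Log2 fold changes (shtRF over control) of the 25 members, the 50 other genes of the window, the 200 and 260 ZNF genes elsewhere and all 19628 genes tested. Boxes give the median and quartiles, whiskers reach 1.5 interquartile ranges, points are genes (not drawn for all genes), and values beyond ±2 lie outside the axis. The median of the members is 0.17 and that of all genes is near 0.

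Among genes for the proteins through which KRAB zinc fingers silence chromatin, more fell than rose. Of 28 genes listed, 27 were tested, of which 14 fell, 3 rose and 10 did not pass, with a median log2 fold change of -0.15. These are 51.9% and 11.1% of the 27, beside 18.9% of all genes lower and 20.6% higher. ZFP57 was too low to be tested. TRIM28, the scaffold that KRAB domains bind, had means of 69.7 ± 2.54 and 63.3 ± 2.30 CPM, a log2 fold change of -0.14 ± 0.05 (edgeR adjusted p = 0.0487). The call was lost without control replicate 1 (adjusted p = 0.0649), control replicate 3 (0.149), shtRF replicate 2 (0.220) or shtRF replicate 3 (0.0915). SETDB1, which methylates histone H3 lysine 9, fell from 57.1 ± 2.77 to 40.6 ± 1.89 CPM (-0.49 ± 0.06 on the log2 scale, adjusted p = 6.79e-07).

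DNMT3B, a de novo DNA methyltransferase, fell the most and was the only gene of this list to fall by more than 2-fold, from 14.9 ± 0.409 to 5.21 ± 0.294 CPM (log2 fold change -1.52 ± 0.09, edgeR adjusted p = 1.30e-11). The histone deacetylase HDAC1 fell from 119 ± 1.21 to 90.2 ± 1.48 CPM (-0.41 ± 0.05, adjusted p = 1.17e-06), the SUMO gene SUMO2 by 0.41 ± 0.05 (adjusted p = 1.94e-06) and CBX5, which encodes heterochromatin protein HP1α, by 0.33 ± 0.05 (adjusted p = 2.56e-05). DNMT1, CBX1 and CBX3 did not pass, with log2 fold changes between -0.0045 and 0.02. Within the HUSH complex, MPHOSPH8 rose by 0.28 ± 0.06 (adjusted p = 2.62e-04) and PPHLN1 by 0.17 ± 0.06 (adjusted p = 0.0245), while FAM208A, now called TASOR, fell by 0.19 ± 0.05 (adjusted p = 0.00505). CHD4, a chromatin remodeller, was the remaining gene to rise, by 0.17 ± 0.06 (adjusted p = 0.0301), although its groups overlapped. Both PPHLN1 and CHD4 lost their calls without control replicate 1 (adjusted p = 0.0691 and 0.0844), control replicate 2 (0.140 and 0.196), shtRF replicate 2 (0.0872 and 0.121) or shtRF replicate 3 (0.0755 and 0.119). Whether the levels of these genes bear on those of the cluster was not tested.

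**Figure D5:**
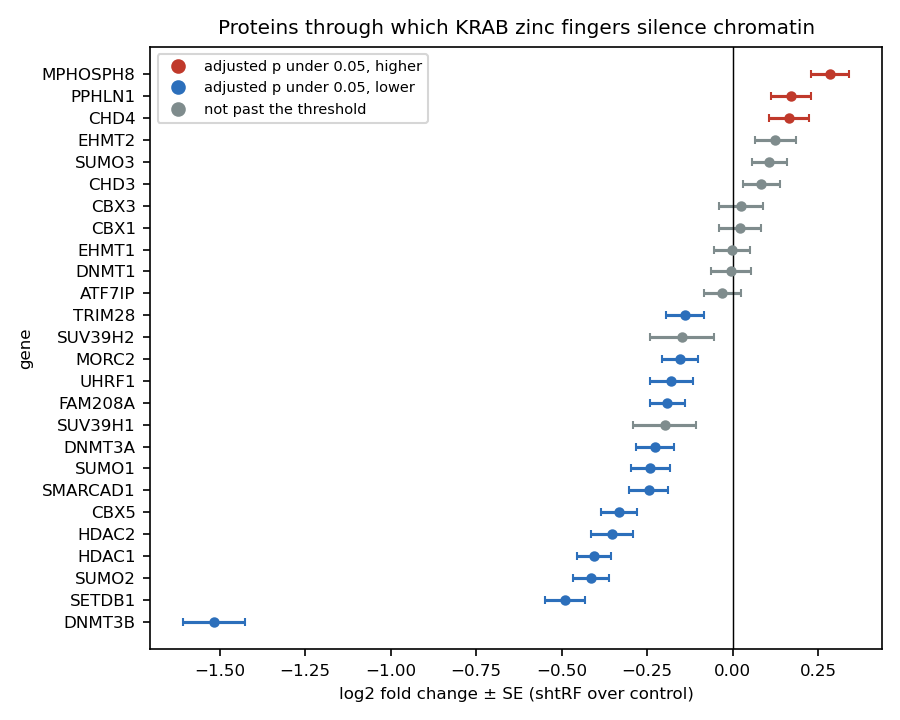
Log2 fold change ± SE (shtRF over control, n = 3 each) of 26 of the 27 co-repressor genes tested, ordered by value and coloured by the edgeR call. DNMT3B lies apart at -1.52, 13 of the genes drawn are lower, 3 are higher and 10 did not pass.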

How the data were processed

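Groups were taken from the sample titles, 3 libraries each. Per the labels, reads were trimmed with Trimmomatic 0.36 and counted with featureCounts (Subread 1.5.1) on GRCh38, and edgeR 3.12.1 was listed. The aligner is not given in the sources used here. The authors deposited raw read counts per gene with exon coordinates. The kit marks strand, but how strand was used in counting is not stated, so overlapping and antisense genes cannot be told apart. Among counts of 1 to 4, 74.2% to 77.1% were even in each library, so a read pair may count as 2. An RPKM file was not used here, since the part at hand held no member, and RPKM was computed from counts and exonic length.

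Counts were tested with edgeR 4.0.16 (R 4.3.3): filterByExpr, TMM factors (0.961 to 1.03), then a quasi-likelihood fit (glmQLFit, glmQLFTest) on group alone, and Benjamini-Hochberg adjustment over 19628 genes at 0.05. CPM values carry the TMM factors. The common dispersion gave a coefficient of variation of 7.56% between replicates. On simulated counts for this comparison, edgeR recovered 198 of 200 changed genes among 19319 tested with 18 false calls of 216, DESeq2 1.42.0 recovered 197 and limma 3.58.1 on log2(RPKM + 1) recovered 182. The planted changes were all 2-fold or larger. Recovery of smaller changes, such as those of the members that are not pseudogenes, was therefore not tested. The alternatives comprised scaling by RLE or by the upper quartile, dropping the count filter, at least 10 counts in every library, counts divided by 2, DESeq2, limma-trend on log2(RPKM + 1) and log2(RPKM + 0.1), genes with under 10% of exonic bases shared, a replicate block and leaving out each library. Exon overlap was computed with bedtools 2.31.1, exact runs with blastn 2.17.0 against GENCODE 29 transcripts and promoter identity with Biopython 1.88 (global alignment). The genes named by rule were the members that passed, the members with the highest mean RPKM and the pseudogene members. ZNF91, ZNF93, ZNF43 and ZNF675 were named for their known functions. Neighbours with the largest changes and genes from a list of KRAB co-repressors were also named. Among the markers and co-repressors, 2 genes are not reported here by name, of which the co-repressor stays in the list's counts. The members and lists were chosen with earlier results of these data known.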

Additional observations from a re-analysis of the deposited data

How the results depend on the processing

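The 8 members called higher were also 8 with a replicate block and 7 to 9 when each library was left out in turn, and 5 under limma-trend on log2(RPKM + 0.1). The count of members lower went from 0 to 1 (ZNF90 each time) with upper quartile scaling, with the replicate block and without control replicate 3 (range 0 to 1 over the libraries left out). Their median log2 fold change was 0.066 on log2(RPKM + 1), 0.11 on log2(RPKM + 0.1) and 0.13 to 0.18 when each library was left out. Fold changes on these log scales understate those of low genes. Their RPKM also carries no TMM factors, and over all genes the median shift against the main fit was -0.046 on log2(RPKM + 1) and -0.052 on log2(RPKM + 0.1). The replicate numbers did not pair the samples (correlations of deviations at most 0.02), and the block changed no other call of a member. Of the named members' 223 values, 196 kept direction and side of the threshold, 17 changed sign in members that did not pass the test either way (ZNF738 in 9, ZNF43 in 4, ZNF253 in 3 and ZNF724P in 1, between -0.083 and 0.082), and 10 lost the call: ZNF257 6 times, including both limma scales (adjusted p = 0.111 and 0.129), ZNF100 3 times, including both (0.125 and 0.118), and ZNF101 on log2(RPKM + 0.1) (0.0754). TRIM28 also lost its call with no filter (0.0799). None of the named members that passed changed sign.

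Co-repressors called higher numbered 1 with upper quartile scaling (PPHLN1 and CHD4 were lost), 1 on each limma scale and 1 to 4 without single libraries, against 3, and their median was -0.20 on log2(RPKM + 0.1). Those called lower numbered 11 to 14 without single libraries. Other genes of the window called higher numbered 10 in the main fit, the highest of all settings. The count was 8 with RLE scaling or DESeq2, 7 with upper quartile scaling and 9 with the replicate block. It was 6 on each limma scale, 4 of 26 among genes with under 10% of exonic bases shared and 7 to 8 without single libraries. The median of the other genes of the window was 0.29 with no filter, 0.027 and 0.067 on the limma scales and 0.090 to 0.23 without single libraries.

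Counts limit the low members most: ZNF725P rests on 13 to 35 counts per control library. Counting error is understated where both mates of a pair were counted.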
